A study of Mus musculus with 6 samples.

Results

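The 50 genes described here are genes of mitosis and chromosome segregation: the cyclins and kinases that start mitosis, the spindle checkpoint, the kinetochore, the kinesin motors, the condensins, the cytokinesis proteins and the trigger of anaphase. They were chosen by name and not by a cut on measured values, though with earlier results of these data known. All 50 were found among the 23231 genes listed in at least 1 of the 6 libraries. Expression was measured by poly(A) RNA-Seq in C2C12, a mouse myoblast line that exits the cell cycle and fuses into myotubes when serum is withdrawn. Lentivirus was given to all cells at an MOI (infectious units per cell) of 100, puromycin at 2 µg/mL selected the carriers, and the cells were then held for 5 days in differentiation medium with 2% horse serum. The control group, dCas9-KRAB (n = 3 libraries), carried the catalytically dead Cas9 fused to the KRAB repressor domain, and the second group, dCas9-KRAB-En5 (n = 3 libraries), carried in addition guide RNAs against En5, an enhancer of Myog, the gene of the myogenic transcription factor myogenin. No library of untransduced cells was analysed here. Whether the replicates came from separate cultures is not given in the sources used here, so the p-values measure the spread between these libraries, which may be technical.

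In a dividing cell, cyclin-dependent kinase 1 and its cyclin B partner drive entry into mitosis, the checkpoint holds the cell until every kinetochore is attached to the spindle, and the anaphase-promoting complex then releases the sister chromatids. Transcripts of these genes accumulate in G2 and M phase and are low in cells that have left the cycle. Their promoters hold an element bound by the MuvB complex, which represses them in resting cells, and CCAAT boxes bound by the activator NF-Y. In muscle, exit from the cycle goes with myogenic differentiation, and myotube nuclei do not divide.

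Myog, the gene whose enhancer was targeted, was measured at 1065, 1224 and 1118 TPM (a transcript level scaled for gene length and library size) in dCas9-KRAB replicates 1 to 3 and at 0.379, 0 and 0 TPM in dCas9-KRAB-En5 replicates 1 to 3. All 12 myotube markers examined were called lower in dCas9-KRAB-En5 cells, with a summed level of 17350 to 19530 TPM in the controls and 7.37 to 17.1 TPM in the En5 libraries. Markers that define C2C12 as myoblasts were also nearly absent from the En5 libraries: the summed level of the 8 examined was 595 to 2150 TPM against 14.8 to 44.2 TPM, 5 of the 7 tested were called lower, and Myod1, the myoblast determination factor, was at 33.8, 111 and 79.2 TPM against 0.0761, 0.0317 and 0 TPM. Markers of macrophages were present in all 6 libraries, at a summed level of 6910 to 9228 TPM in the controls and 14527 to 22651 TPM in the En5 libraries over 20 genes. Of these, 13 were at 10 TPM or more in every library, and C1qa, at 0 to 0.51 TPM in the controls, was at 0 in all 3 En5 libraries. Of the 18 tested, 1 was called higher and 0 lower, with 13 log2 fold changes above 0 and 5 below. Lyz2 was the largest single part of the sum, at 4815, 1896 and 2808 TPM in the controls and 13210, 6938 and 11005 TPM in the En5 libraries (edgeR adjusted p = 0.087). Fibroblast and mesenchymal markers summed to 82.7 to 249 TPM in the controls and 30.1 to 62 TPM in the En5 libraries, with 1 of 7 tested called lower. The En5 libraries therefore went against the labelled cell type, and the macrophage markers did so in all 6 libraries, the controls included. The part of the cells' makeup in every result below was not tested.

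Total counts ran from 31831093 to 73988425 per library. dCas9-KRAB-En5 replicate 3 stood apart from the other libraries: it listed 13991 genes against 17084 to 19395 in the others, and ribosomal protein genes took 25.8% of its counts against 10.7% to 19.3%. Counts of calls are therefore given with and without this library. The lowest value of any of the 50 genes was 5 counts, and 48 of them had at least 10 counts in every library. In bulk RNA a lower level in all cells and fewer cells that express the gene cannot be told apart.

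The promoters of the genes held shared elements that their choice by name did not use. In RefSeq windows of 300 bases (250 before the transcription start and 50 after, assembly GRCm38.p6), 42 of the 50 genes were matched, with 45 windows. The element TTTGAA, known as the cell cycle genes homology region (CHR), was searched on both strands (reverse TTCAAA). It was found in 36 of the 45 windows, or 80.0%, against 17.9% of all 32851 windows and 10.5% of 38 windows of DNA replication genes. CCAAT (reverse ATTGG), the box bound by NF-Y, was in 34 windows, or 75.6%, against 37.4% of all windows and 60.5% of the replication windows. Both stood together in 31 windows (68.9%) against 6.95% of all windows. The E2F element TTGGCGC (reverse GCGCCAA) was in 8 windows of the mitotic genes (17.8%), 2.45% of all windows and 23.7% of the replication windows, and the second E2F form TTCGCGC (reverse GCGCGAA) was in 1 window of the mitotic genes (2.22%) against 1.59% and 21.1%. The variant CHR forms were less frequent: TTTAAA was in 22.2% of the mitotic windows and 13.2% of all, TTCGAA in 6.67% and 1.56%, and CTTGAA (reverse TTCAAG) in 15.6% and 13.2%. A match is a match of letters and not a measured binding site.

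**Figure D1:**
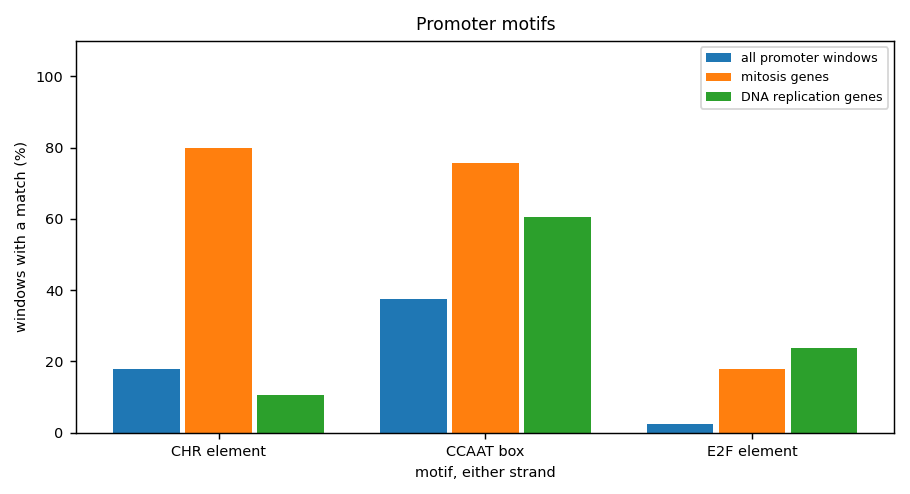
Share of 300-base promoter windows (y axis, %) with a match on either strand to the CHR element TTTGAA, the CCAAT box and the E2F element TTGGCGC (x axis), for all 32851 windows, 45 windows of the mitosis genes and 38 windows of DNA replication genes. The CHR element was in 80.0% of the mitosis windows and 10.5% of the replication windows.

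The bases from 150 before the RefSeq start of 6 of these genes are shown, with TTTGAA and CCAAT in capitals in either orientation. Bases next to the start that GENCODE annotates as exon were left out, 6 of them in Bub1, 9 in Cdc20 and 26 in Cdk1. Mki67, Bub1, Top2a and Kif11 are shown because En5 replicates 1 and 2 were above every control, and Cdk1 and Cdc20 because these 2 libraries were not both above. With En5 replicate 3 included, the groups overlapped on the TPM scale for all 6 genes.
Mki67, chr7:135716380-135716529, minus strand: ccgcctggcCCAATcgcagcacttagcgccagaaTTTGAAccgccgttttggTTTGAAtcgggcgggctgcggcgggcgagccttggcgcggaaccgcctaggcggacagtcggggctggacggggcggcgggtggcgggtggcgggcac
Bub1, chr2:127831866-127832009, minus strand: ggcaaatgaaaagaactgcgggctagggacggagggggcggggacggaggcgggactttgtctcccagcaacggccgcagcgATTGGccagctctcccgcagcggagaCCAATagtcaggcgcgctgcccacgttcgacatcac
Top2a, chr11:99024190-99024339, minus strand: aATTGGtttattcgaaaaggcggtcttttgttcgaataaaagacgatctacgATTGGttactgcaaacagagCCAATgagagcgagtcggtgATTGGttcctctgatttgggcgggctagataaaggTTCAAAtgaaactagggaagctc
Kif11, chr19:37376232-37376381, plus strand: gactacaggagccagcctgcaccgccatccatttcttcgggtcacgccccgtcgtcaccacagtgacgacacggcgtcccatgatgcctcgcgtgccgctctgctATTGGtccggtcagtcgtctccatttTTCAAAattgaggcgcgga
Cdk1, chr10:69352939-69353062, minus strand: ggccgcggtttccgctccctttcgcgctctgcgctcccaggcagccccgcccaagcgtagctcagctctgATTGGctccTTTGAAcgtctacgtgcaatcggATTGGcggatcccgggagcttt
Cdc20, chr4:118437353-118437493, minus strand: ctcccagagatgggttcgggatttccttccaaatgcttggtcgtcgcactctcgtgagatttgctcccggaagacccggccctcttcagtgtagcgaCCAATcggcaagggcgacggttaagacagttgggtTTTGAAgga
The CHR of Cdc20 ends 13 bases before the start, that of Top2a 18 bases, that of Kif11 14 bases and the one shown of Cdk1 66 bases. In Mki67 the nearer of 2 copies ends 93 bases before the start, and Bub1 had none in its whole window but held 2 CCAAT boxes. The 33 genes with TTTGAA had a median log2 fold change of dCas9-KRAB-En5 over dCas9-KRAB of 0.56 and the 9 without it -0.15. Those 9 include Bub1, with the highest value of the 50 genes, and Pttg1, with one of the lowest. For CCAAT the medians were 0.68 in the 31 genes with it and 0.16 in the 11 without. The variant TTTAAA went the other way, with 0.0053 in the 10 genes with it and 0.56 in the 32 without. None of these differences was tested.

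The question of the comparison was how the mitotic genes stood in cells with the enhancer repressed against cells with dCas9-KRAB alone. None of the 50 genes was called at the stricter rule (an edgeR adjusted p no higher than 0.01 together with a log2 fold change of 1 or more in either direction), at which 1.52% of the 14378 genes tested were called higher and 4.67% lower. At an edgeR adjusted p of at most 0.05 without a limit on the fold, 2 genes rose, Bub1 and Mki67, and none fell, against 7.43% of all genes higher and 9.6% lower. At an unadjusted edgeR p under 0.05 there were 8 higher (background 16.6%) and 0 lower (background 16.3%), and DESeq2 at the stricter rule called Bub1 and Mki67 higher (background 6.77%) and none lower. At the looser rule DESeq2 added Aspm and Smc4 (background 12.0%). In none of these counts was the share of the 50 genes above the share of all genes, where that share is given. For the genes higher at the unadjusted p the 2 shares were close. The share of all genes called lower by DESeq2 was not taken.

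Of the 50 fold changes 38 were above 0 and 12 below, with no test of this count, and their median log2 fold change was 0.59, beside 0.075 and 52.3% above 0 over all genes tested. Single values ran from -1.01 (Spc24) to 2.30 (Bub1). The sign was positive in the reported fit and in every one of the 19 alternative fits that gave a value for 27 genes and negative in all of them for 7 (Cdk1, Ccnb1, Bub3, Birc5, Spc24, Kif2c and Pttg1), and it changed in at least 1 fit for the other 16. On the TPM scale the 3 En5 libraries lay above all 3 controls for Cenpa and Cenpf, against 7.76% of all genes tested, and below them for Pttg1, against 19.7%. On CPM with TMM scaling (counts scaled for library size and not for gene length), Bub1 and Mki67 joined the genes above (15.4% of all genes) and Bub3 joined Pttg1 below (20.2%).

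The En5 libraries differed more among themselves than the controls did. En5 replicate 2 held the highest TPM of all 6 libraries for 40 of the 50 genes, and En5 replicate 3 held the lowest of the 6 for 29 and the lowest of the 3 En5 libraries for 47. The summed TPM of the 50 genes was 524, 872 and 723 in the 3 controls and 818, 1459 and 485 in the 3 En5 libraries, so that the group ranges overlapped. Relative to the mean of the controls on the log2(TPM + 0.1) scale, the median gene stood at 1.03, 1.70 and -0.67 in En5 replicates 1, 2 and 3. The same median over all genes tested was 0.51, 0.66 and -0.71, so in replicate 3 the mitotic genes stood where the typical gene did. En5 replicates 1 and 2 were both above all 3 controls for 32 genes (46.2% of all genes tested) and both below them for 2 (22.4%), while En5 replicate 3 was below all 3 controls for 30 (57.8%).

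**Figure D2:**
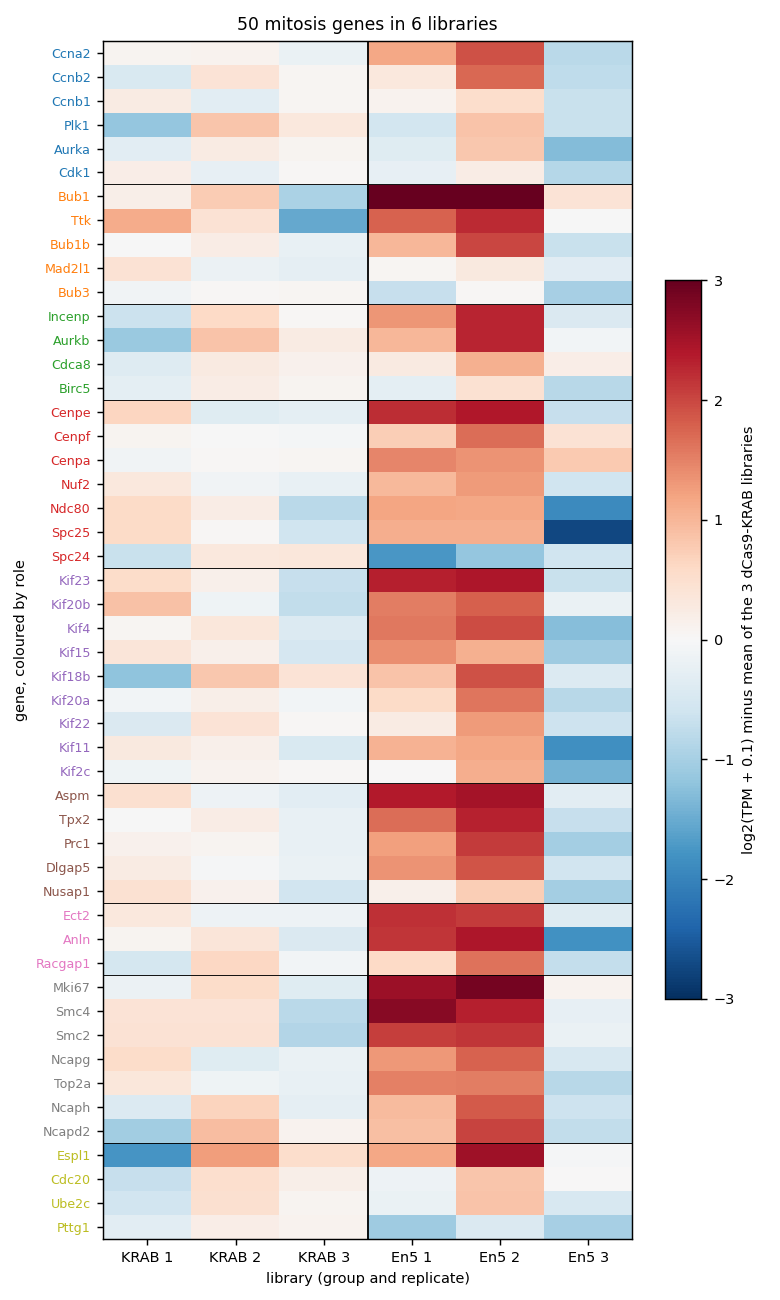
Each row is 1 of the 50 genes, grouped and coloured by role, and each column 1 of the 6 libraries (KRAB, dCas9-KRAB; En5, dCas9-KRAB-En5). Colour shows log2(TPM + 0.1) minus the mean of the 3 dCas9-KRAB libraries, cut at 3 in either direction. The columns of En5 replicates 1 and 2 are mostly red, with replicate 2 the highest of 6 for 40 genes, and the column of En5 replicate 3 is mostly blue, the lowest of 6 for 29.

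Without En5 replicate 3, edgeR called 7 of the 50 genes higher at the stricter rule (Anln, Aspm, Bub1, Kif23, Mki67, Smc4 and Tpx2; background 11.7%) and 1 lower (Spc24; background 14.0%). At an adjusted p of at most 0.05 it gave 15 higher (background 19.8%) and 2 lower, Spc24 and Pttg1 (background 22.6%). At the stricter rule the share of the 50 genes called higher was then close to the share of all genes, and at the looser rule it was above it. The share called lower was below that of all genes at both rules. None of these differences in share was tested. Their median log2 fold change was 0.78, beside -0.053 over all genes. Leaving out any of the other 5 libraries left none of the 50 genes called at either rule, Bub1 and Mki67 included. The share of all genes called in those 5 fits was not taken, so these counts are not read as a result about the 50 genes. Of the fits that left out 1 library, only that without En5 replicate 3 kept the 2 calls at the looser rule. The fits above did not pair the libraries by replicate number. With that number as a block, 1 gene was called higher at the stricter rule (Bub1, edgeR adjusted p = 0.0065, against 3.94% of all genes). Bub1, Mki67 and Smc4 were then higher at the looser rule (background 10.6%).

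Bub1 and Mki67 were the 2 genes that passed the looser rule. Bub1 encodes a checkpoint kinase of the kinetochore (gene at chr2:127801122-127831865, minus strand, GRCm38). It was measured at 0.686, 1.07 and 0.256 TPM in dCas9-KRAB replicates 1 to 3 and at 6.18, 5.78 and 0.823 TPM in dCas9-KRAB-En5 replicates 1 to 3. En5 replicates 1 and 2 were far above every control and replicate 3 lay within the control range. The difference was 4.91-fold (log2 fold change 2.30 ± 0.67, edgeR adjusted p = 0.036). Errors of log2 fold changes are throughout SE derived from the edgeR fit, with n = 3 libraries per group. Each is the absolute log2 fold change divided by the square root of the F statistic of its test. Mki67, the proliferation marker that coats mitotic chromosomes (chr7:135689784-135716361, minus strand), was measured at 0.582, 1.03 and 0.497 TPM in the controls and 4.48, 5.6 and 0.734 TPM in the En5 libraries. As for Bub1, En5 replicates 1 and 2 were above every control and replicate 3 was inside the control range. The difference was 3.9-fold (log2 fold change 1.97 ± 0.55, edgeR adjusted p = 0.031). Both were low transcripts, with group means of 0.672 ± 0.409 and 4.26 ± 2.98 TPM for Bub1 and 0.704 ± 0.288 and 3.6 ± 2.55 TPM for Mki67 (SD, n = 3).

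**Figure D3:**
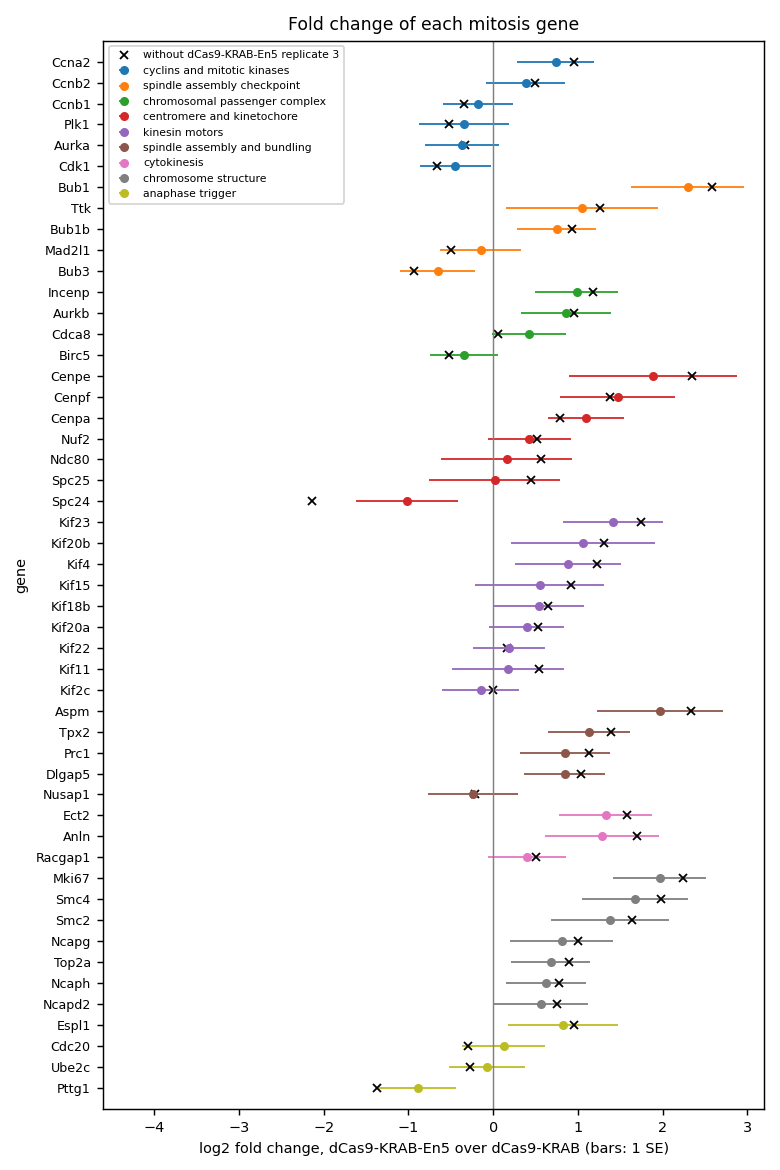
Points give the edgeR log2 fold change of dCas9-KRAB-En5 over dCas9-KRAB (x axis) for each of the 50 genes (y axis), coloured by role. Bars are 1 SE derived from the F statistic of the edgeR fit, with 3 libraries per group. Crosses give the value without En5 replicate 3. Of the 50 points, 38 lie above 0, and Spc24 moves furthest left, from -1.01 to -2.13.

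The 6 cyclins and mitotic kinases held 2 genes above 0 and 4 below, with a median log2 fold change of -0.26, and none passed either rule. Cdk1, the kinase that drives mitotic entry, was measured at 24.2, 17.7 and 21.5 TPM in the controls and 17.7, 24.3 and 11.6 TPM in the En5 libraries. The ranges overlapped, with En5 replicate 2 highest and replicate 3 lowest (log2 fold change -0.45 ± 0.42, edgeR adjusted p = 0.49). Ccnb1, the cyclin B1 partner of Cdk1, was at 20.5, 13.7 and 18 TPM and 18.6, 24.7 and 10.8 TPM, with the same overlap (log2 fold change -0.18 ± 0.42, edgeR adjusted p = 0.79). Aurka, the kinase of the spindle poles, was at 30.6, 45.2 and 40.9 TPM and 29.7, 67.6 and 15.6 TPM, where En5 replicate 2 was the highest and replicate 3 the lowest of all (log2 fold change -0.37 ± 0.43, edgeR adjusted p = 0.59). The other 3 were Ccna2 (cyclin A2) at 0.74, Ccnb2 (cyclin B2) at 0.38 and the Polo-like kinase Plk1 at -0.34 on the log2 fold scale. Without En5 replicate 3, Ccna2 stood at 0.95 (edgeR adjusted p = 0.049).

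Of the 5 checkpoint genes, 3 were above 0 and 2 below, with a median of 0.75. Bub3, which carries Bub1 and BubR1 to the kinetochore, went the other way from Bub1. It was at 42.3, 46.6 and 47.6 TPM in the controls and 28.1, 46.7 and 22.6 TPM in the En5 libraries. En5 replicate 2 was within the control range and the other 2 were below it (log2 fold change -0.66 ± 0.44, edgeR adjusted p = 0.32). Bub1b, the gene of BubR1, stood at 0.75, Ttk, the Mps1 kinase, at 1.05 and Mad2l1, the checkpoint protein Mad2, at -0.15 on the log2 fold scale.

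The chromosomal passenger complex corrects faulty attachments and later directs cytokinesis. Of its 4 genes 3 were above 0, with a median log2 fold change of 0.64, and none passed. Aurkb, its kinase, was at 5.38, 21.4 and 14.1 TPM in the controls and 23.8, 57.7 and 11.2 TPM in the En5 libraries. En5 replicates 1 and 2 were above the controls and replicate 3 was between them (log2 fold change 0.86 ± 0.53, edgeR adjusted p = 0.28). Birc5 (survivin) was at 17.7, 25.2 and 22.9 TPM and 17.7, 29.9 and 12.1 TPM, overlapping throughout (log2 fold change -0.34 ± 0.41, edgeR adjusted p = 0.59). The scaffold Incenp stood at 0.98 and Cdca8 (borealin) at 0.42 on the log2 fold scale.

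Among the 7 centromere and kinetochore genes, 6 were above 0 and the median was 0.43. Cenpa, the histone H3 variant that marks centromeres, was at 34.1, 37.3 and 38.1 TPM in the controls and 100.0, 93.2 and 63.3 TPM in the En5 libraries. Here all 3 En5 libraries lay above all 3 controls, replicate 3 included. The group means were 36.5 ± 2.13 and 85.5 ± 19.5 TPM (SD, n = 3), a 2.14-fold difference that did not pass (log2 fold change 1.10 ± 0.45, edgeR adjusted p = 0.11). Cenpf, a large protein of the outer kinetochore, was separated too but at a level below 1 TPM, 0.0955, 0.0814 and 0.0752 TPM in the controls and 0.208, 0.489 and 0.147 TPM in the En5 libraries (log2 fold change 1.47 ± 0.68, edgeR adjusted p = 0.15). Cenpe, the kinetochore kinesin, was at 0.218, 0.0589 and 0.0674 TPM and 0.843, 0.985 and 0.0253 TPM. En5 replicate 3 was the lowest library of all for Cenpe while the other 2 En5 libraries were the highest (log2 fold change 1.88 ± 0.99, edgeR adjusted p = 0.21).

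Of the 4 subunits of the NDC80 complex, which grips microtubules, Spc24 had the lowest log2 fold change of the 50 genes. It was at 18.7, 37.1 and 37.6 TPM in the controls and 8.75, 13.3 and 19.4 TPM in the En5 libraries. En5 replicates 1 and 2 were below every control, and En5 replicate 3 was just above the lowest control (log2 fold change -1.01 ± 0.60, edgeR adjusted p = 0.27). Without En5 replicate 3 it was called lower, at -2.13 (edgeR adjusted p = 0.0035). The other 3 subunits had values within their errors of 0, Ndc80 at 0.16 ± 0.77, Nuf2 at 0.43 ± 0.48 and Spc25 at 0.016 ± 0.78. Their sign changed in 8, 4 and 14 of the 19 alternative fits, and with the GC offset (described with GC content) all 4 subunits were below 0.

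Of the 9 kinesin motors 8 were above 0, with a median of 0.54, and none passed either rule with all libraries. Kif11, the motor Eg5 that pushes the spindle poles apart, was at 0.958, 0.863 and 0.533 TPM in the controls and 1.68, 1.83 and 0.141 TPM in the En5 libraries. En5 replicates 1 and 2 were above every control and replicate 3 was the lowest of all (log2 fold change 0.17 ± 0.67, edgeR adjusted p = 0.88), and the fold change turned sign in 8 of 19 alternative fits. Kif23, the motor of the central spindle, had the largest value of the 9, 1.41, and was called higher without En5 replicate 3 at 1.74 (edgeR adjusted p = 0.0086). Kif2c, which removes microtubule ends, had the only negative value, -0.15. The other 6 kinesins, Kif4, Kif15, Kif18b, Kif20a, Kif20b and Kif22, ran from 0.18 to 1.06.

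The 5 genes of spindle assembly and bundling had a median of 0.85, 4 of them above 0. Aspm, which holds microtubules at the poles, was at 0.261, 0.134 and 0.108 TPM in the controls and 1.26, 1.37 and 0.109 TPM in the En5 libraries. En5 replicates 1 and 2 were about alike and far above the controls, and replicate 3 was within the control range (log2 fold change 1.97 ± 0.74, edgeR adjusted p = 0.086). Tpx2, the activator of Aurora A, stood at 1.13 with all libraries and 1.39 without En5 replicate 3. Prc1, which bundles the midzone, was at 0.85, Dlgap5 at 0.84 and Nusap1 at -0.24. All 3 cytokinesis genes were above 0, with a median of 1.28, the highest of the 9 roles. Anln, the cleavage-furrow protein anillin, was at 1.99, 2.43 and 1.36 TPM and 8.62, 10.5 and 0.458 TPM. It had 2 En5 libraries above and 1 below all controls (log2 fold change 1.28 ± 0.67, edgeR adjusted p = 0.21). Ect2, which acts at the cleavage furrow, stood at 1.33 and its partner Racgap1 at 0.40.

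All 7 genes of chromosome structure were above 0, with a median of 0.81 and a range from 0.56 to 1.97, and Mki67 was the 1 that passed. Smc4, a core ATPase of both condensins, was at 1.23, 1.24 and 0.476 TPM in the controls and 6.61, 4.95 and 0.755 TPM in the En5 libraries. Its partner Smc2 was at 0.531, 0.527 and 0.155 TPM and 1.86, 1.95 and 0.303 TPM. For both, En5 replicates 1 and 2 were above every control and replicate 3 was within the control range. The log2 fold changes were 1.67 ± 0.63 and 1.38 ± 0.69, with edgeR adjusted p = 0.086 and 0.19. Top2a, the topoisomerase that untangles sister chromatids, was at 5.33, 3.84 and 3.61 TPM in the controls and 12.2, 12.4 and 2.33 TPM in the En5 libraries. Replicate 3 was here the lowest of all libraries (log2 fold change 0.68 ± 0.47, edgeR adjusted p = 0.34). The 3 other condensin I subunits Ncapd2, Ncapg and Ncaph stood at 0.56, 0.81 and 0.62.

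The 4 genes of the anaphase trigger were split evenly around a median of 0.026. Pttg1 (securin), the inhibitor of separase, was at 54.6, 78.9 and 73.8 TPM in the controls and 32.8, 50.5 and 34.4 TPM in the En5 libraries. All 3 En5 libraries lay below all 3 controls (log2 fold change -0.89 ± 0.45, edgeR adjusted p = 0.20), with group means of 69.1 ± 12.8 and 39.2 ± 9.77 TPM (SD, n = 3). Its target Espl1 (separase) stood at 0.82 on the log2 fold scale. Cdc20, the activator of the anaphase-promoting complex, was at 52.1, 119 and 95.4 TPM and 75.6, 148 and 84.2 TPM. It had the highest mean level of the 50 genes, and its groups overlapped (log2 fold change 0.12 ± 0.49, edgeR adjusted p = 0.89). Ube2c, the ubiquitin-conjugating enzyme of that complex, was at 36.8, 75.7 and 57.8 TPM and 47.5, 98.2 and 38.8 TPM, again overlapping (log2 fold change -0.07 ± 0.45, edgeR adjusted p = 0.93). The exons of Ube2c overlap those of Tnnc2, a muscle troponin gene, on the opposite strand, and reads of such pairs cannot be told apart where strand was not used in counting. Exons of 13 of the 50 genes overlap another annotated gene, 11 of them on the opposite strand.

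The fold changes of the 50 genes went with gene length, as did most of their differences between replicates of the same group. Dividing counts by TPM gives each gene's length up to a constant per library, and for all 50 genes the result was within 1% of the annotated summed exon length. The lengths ran from 1531 bases (Ccnb2) to 15433 bases (Cenpf), with a median of 5193 against 3910 over all genes tested. Across the 50 genes, which share the same 6 libraries, Spearman's rho between length and log2 fold change was 0.52. Over all 14378 genes it was 0.26. Between replicates of 1 group, the rho of length with the log2(TPM + 0.1) difference over the 50 genes was 0.44 (replicate 1 minus 2), 0.44 (1 minus 3) and 0.047 (2 minus 3) in the controls and 0.46, 0.47 and 0.31 in the En5 group. Over 14340 tested genes the same values were -0.11, 0.11 and 0.40 in the controls and -0.053, 0.38 and 0.39 in the En5 group. For replicate 1 minus 2 the sign over all genes was thus opposite to that of the 50 genes in both groups. The 17 shortest genes (up to 4329 bases) had a median log2 fold change of 0.016 with 9 above 0 and 8 below, the middle 17 (4338 to 6805 bases) 0.84 with 15 above 0, and the longest 16 (from 6957 bases) 0.83 with 14 above 0. All tested genes of the same 3 length ranges had medians of -0.26, 0.26 and 0.77. The longest 16 genes thus stood close to other genes of their length, and the shortest and middle groups stood above them.

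**Figure D4:**
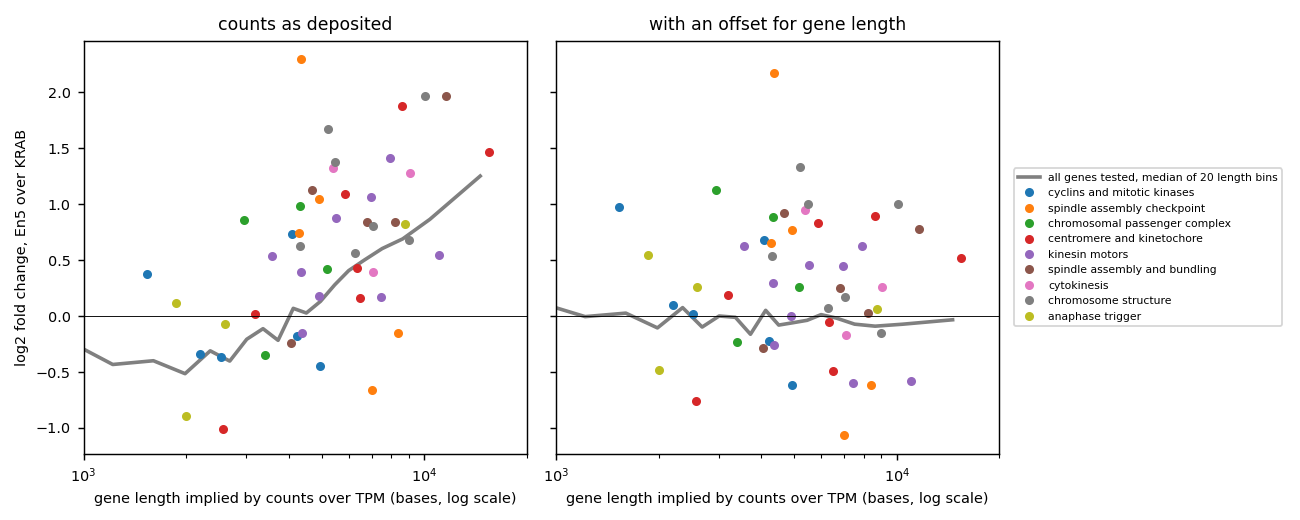
Log2 fold change of dCas9-KRAB-En5 over dCas9-KRAB (y axis) against gene length implied by counts over TPM (x axis, bases, log scale) for the 50 genes, coloured by role, without (left) and with (right) an offset for gene length. The grey line is the median of all genes tested in 20 bins of length. Spearman's rho over the 50 genes was 0.52 on the left and -0.066 on the right.

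With an offset that removes each library's smooth trend on length, the median log2 fold change of the 50 genes was 0.26 beside -0.014 over all genes, 34 of the 50 were above 0 and rho with length was close to 0 (-0.066). With it 6.29% of all genes were higher and 10.7% lower at the looser rule. Bub1, of 4354 bases, kept its value (2.17, edgeR adjusted p = 0.035), while Mki67, of 10061 bases, went to 1.01 and no longer passed (edgeR adjusted p = 0.099). Aspm went from 1.97 to 0.78, Cenpf from 1.47 to 0.52 and Top2a from 0.68 to -0.15. The short Ccnb2 went up, from 0.38 to 0.98, as did Cdc20, from 0.12 to 0.55. The role medians moved most for cytokinesis, from 1.28 to 0.26. Length also went with mean level (rho -0.64) and with GC content (rho -0.45) across the 50 genes, so these properties cannot be told apart here. By library, the rho of length with the log2 ratio to the control mean was 0.55, 0.39 and 0.0728 in En5 replicates 1, 2 and 3. The same values over all genes were 0.32, 0.34 and -0.0052.

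GC content of the longest annotated transcript, from 34.8% (Ncapg) to 56.1% (Espl1), went with the differences between replicates of the same group. In the controls, the log2(TPM + 0.1) difference of replicate 1 and replicate 2 across the 50 genes had a rho of -0.78 with GC content, that of replicates 1 and 3 -0.85 and that of replicates 2 and 3 -0.057. In the En5 group the 3 values were -0.76 (replicates 1 and 2), -0.49 (1 and 3) and -0.12 (2 and 3). Over 14340 tested genes the same values were -0.61, -0.67 and 0.081 in the controls and -0.37, -0.40 and -0.25 in the En5 group. Genes of high GC content, such as Espl1 at 1.15, 9.94 and 5.96 TPM and Plk1 at 20.6, 82.1 and 57.9 TPM in control replicates 1 to 3, were lowest in control replicate 1, whereas Ncapg, of the lowest GC content, was highest there (0.782, 0.374 and 0.43 TPM). With an offset for GC content the median log2 fold change was 0.31, the rho of length with log2 fold change was 0.33, Mki67 alone passed the looser rule (edgeR adjusted p = 0.033), and Bub1 stood at 1.59 (edgeR adjusted p = 0.067).

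**Figure D5:**
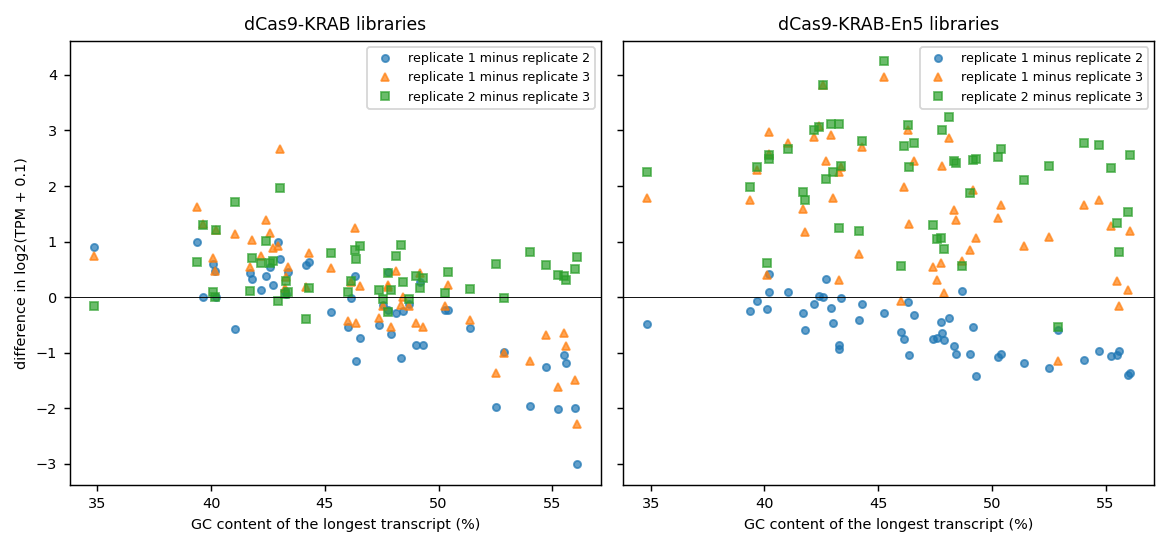
Difference in log2(TPM + 0.1) between pairs of replicates (y axis) against GC content of the longest transcript (x axis, %) for the 50 genes, within dCas9-KRAB (left) and dCas9-KRAB-En5 (right). Spearman's rho for replicate 1 minus replicate 2 was -0.78 for the controls and -0.76 for the En5 libraries.

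Other genes of the same pathway were taken from 7 lists, whose counts are to be read against the same shares of all genes: 7.43% higher and 9.6% lower at the looser rule with all libraries, 10.6% and 12.7% with the replicate block, and, without En5 replicate 3, 11.7% and 14.0% at the stricter and 19.8% and 22.6% at the looser rule. Of 24 transcription regulators of the G2/M program none was called at the stricter rule, 1 rose and 1 fell at the looser rule, 16 were above 0 and the median log2 fold change was 0.74. With the length offset that median was 0.092. The 2 that passed are both subunits of NF-Y, the CCAAT-binding factor: Nfya at 1.81 (edgeR adjusted p = 0.03) and Nfyc at -1.43 (edgeR adjusted p = 0.041). Nfya was at 5.33, 4.83 and 4.09 TPM in the controls and 27.4, 36 and 4.41 TPM in the En5 libraries, overlapping through En5 replicate 3, and Nfyc was at 10.5, 13.9 and 12.3 TPM and 4.83, 7.3 and 3.36 TPM with no overlap. With the length offset Nfya went to 1.11 and no longer passed (edgeR adjusted p = 0.067), while Nfyc did (edgeR adjusted p = 0.041). With the block the 24 genes gave 6 higher and 1 lower at the looser rule, and without En5 replicate 3 they gave 6 higher and 1 lower at the stricter rule and 9 and 3 at the looser one, Nfya and Nfyc passing the stricter rule (edgeR adjusted p = 0.0011 and 0.0061).

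Among 20 switches of mitotic entry and exit, 2 rose at the looser rule and none fell, with a median of 0.53: the phosphatase Cdc25a at 1.90 (edgeR adjusted p = 0.024) and Ppp2r2a, a regulatory subunit of protein phosphatase 2A, at 1.73 (edgeR adjusted p = 0.024). With the block they gave 3 higher and 0 lower at the looser rule, Gtse1 being added (edgeR adjusted p = 0.021). Without En5 replicate 3 they gave 2 higher and 0 lower at the stricter rule and 4 and 0 at the looser one, and the 2 at the stricter rule were Cdc25a and Ppp2r2a (edgeR adjusted p = 0.0013 and 0.0021).

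The 17 genes of the anaphase-promoting complex were mostly below 0 (14 of 17, median -0.67), 6 had all En5 libraries below all controls on the TPM scale (against 19.7% of all genes), and with all libraries none passed either rule. Nearest to passing was Anapc16 at -1.31 (edgeR adjusted p = 0.067), which passed the looser rule with the block (edgeR adjusted p = 0.047) as 1 of 2 genes lower there. The list without En5 replicate 3 gave 1 higher and 4 lower at the stricter rule and 1 and 5 at the looser one, with Anapc16 lower at -1.65 (edgeR adjusted p = 0.0093) and Anapc1, the largest subunit, higher at 1.64 (edgeR adjusted p = 0.005). Anapc1, of 16714 bases, stood at 1.34 with all libraries and at -0.063 with the length offset.

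Cohesin and its regulators were mostly above 0 (12 of 15, median 0.93, or 0.22 with the length offset). With all libraries none passed, and the loader Nipbl came nearest at 2.60 (edgeR adjusted p = 0.053). With the block the list gave 3 higher and 0 lower at the looser rule, Nipbl and the cohesin release factor Wapl among them (edgeR adjusted p = 0.0103 and 0.014). Leaving out En5 replicate 3 gave 3 higher and 0 lower at the stricter rule and 5 and 0 at the looser one, and the 3 at the stricter rule were Nipbl, Wapl and Pds5a (edgeR adjusted p = 0.0029, 0.0052 and 0.0015). With all libraries and the length offset, these 3 stood at 1.59, 1.27 and 0.21, and none passed (edgeR adjusted p = 0.13, 0.11 and 0.79). Of 29 other kinetochore and centromere genes 14 were above 0 (median -0.043) and 1 fell at the looser rule, Cenpt, a DNA-binding protein of the inner kinetochore, at -2.27 (edgeR adjusted p = 0.011). It was at 5.51, 12.3 and 8.85 TPM in the controls and 2.45, 3.79 and 0.743 TPM in the En5 libraries, with no overlap. Cenpt passed the stricter rule with the block (edgeR adjusted p = 0.0038, against 6.79% of all genes lower). The 29 genes without En5 replicate 3 gave 1 higher and 1 lower at the stricter rule and 7 and 4 at the looser one, Cenpt lower and Hjurp, the chaperone that deposits Cenpa, higher at the stricter rule (edgeR adjusted p = 0.004 and 0.008). With all libraries and the length offset, Cenpt stood at -2.21 (edgeR adjusted p = 0.0074) and Hjurp at 0.40 (edgeR adjusted p = 0.58). The 3 condensin II subunits stood at 1.33 (Ncapd3), 1.11 (Ncapg2) and -0.30 (Ncaph2), and at 0.53, 0.20 and -0.26 with the length offset. Leaving out En5 replicate 3 gave 1 higher and 0 lower at the stricter rule and 2 and 1 at the looser one.

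The 42 genes of DNA replication and nucleotide synthesis, which act in S phase, had fold changes mostly of the opposite sign to those of the 50 mitotic genes: 34 were below 0 and 8 above, with a median log2 fold change of -0.74. Tyms, the thymidylate synthase, was called lower at the stricter rule, at -2.89 (edgeR adjusted p = 0.0021), with 8.4, 6.59 and 8.1 TPM in the controls and 1.36, 1.37 and 0.804 TPM in the En5 libraries. Gins3, a subunit of the replicative helicase, rose at the looser rule, at 1.69 (edgeR adjusted p = 0.037). With the block the list gave 1 higher and 6 lower at the looser rule, and leaving out En5 replicate 3 gave 1 higher and 5 lower at the stricter rule and 2 and 12 at the looser one. Their median length was 4045 bases against 5193 for the mitotic genes. With the length offset the medians were -0.70 and 0.26, and without En5 replicate 3 they were -0.69 and 0.78. The difference between the lists was not tested, since the genes of a list share the same libraries.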

How the data were processed

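Poly(A) RNA from 6 C2C12 libraries (3 dCas9-KRAB, 3 dCas9-KRAB-En5, grouped by their labels) was sequenced by the authors, who aligned reads to GRCm38/mm10 with HISAT2 2.2.1 and counted them per gene with featureCounts. The annotation release and strand setting are not given in the sources used here. Per the file headers each deposited file holds counts per gene and TPM, which the authors calculated from them. A gene not listed in a library was taken as 0. Gene IDs were matched to symbols and GRCm38 coordinates through GENCODE vM21 (23155 of 23231 IDs matched). Implied length within 1% of the annotated length was found in 98.6% of the 12933 genes counted in every library.

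Counts were fitted with edgeR 4.0.16 (R 4.3.3), quasi-likelihood test, TMM scaling, a filter on low counts (filterByExpr, minimum 10, total 15; 14378 genes left, all 50 mitotic genes among them) and Benjamini-Hochberg adjustment over all genes tested. The call rules were an adjusted p no higher than 0.01 together with a log2 fold change of 1 or more in either direction (the stricter rule, the study's cutoffs) and an adjusted p of at most 0.05 (the looser rule). The study used DESeq2, which was run here as an alternative (1.42.0), as were other scalings and filters, limma-trend 3.58.1 on log2(TPM + 1) and log2(TPM + 0.1), offsets for gene length, the replicate number as a block and leaving out each library. Offsets for GC content were added after the data were seen. The scripts were tested on simulated data. Same-numbered libraries of the 2 groups deviated together (correlation of deviations from the group mean 0.26, 0.21 and 0.29 over 14378 genes, against -0.34 to -0.051 for differently numbered ones). Deviations within a group sum to 0, so positive values for same-numbered libraries push the others below 0. By this sign in the data alone, since the labels give only the number, the numbers were taken to pair the libraries. The reported fit did not use this pairing, and the fit with the replicate block was an alternative. No pair of replicates agreed within sampling noise. Depth was 31831093 to 73988425 counts per library, so that 3 counts, the limit a count of 0 allows, are 0.041 to 0.094 CPM. This covers counting error only.

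Promoter windows came from RefSeq (GRCm38.p6). The 50 genes, the 7 pathway lists and the marker lists were chosen with earlier results of these data known. Values in every library are given for the 6 genes with the largest and the 6 with the smallest log2 fold change and for 12 examples, 21 genes in all, and from each pathway list up to 3 were named, by smallest adjusted p.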

Additional observations from a re-analysis of the deposited data

How the results depend on the processing

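With 3 libraries per group and En5 replicate 3 far from the other 2, the counts of calls depended on single libraries and on the tool. The number of mitotic genes called higher at the stricter rule, 0 with all libraries, was 1 without a filter on low counts, 2 with DESeq2, 1 with the replicate block, and 1 with the length offset and the replicate block together. Leaving out 1 library gave 0 to 7 called higher and 0 to 1 called lower, all of them without En5 replicate 3. At the looser rule the count of 2 higher became 4 with DESeq2, 1 with the length offset, 1 with the GC offset and 0 with total counts only and with both limma fits, and ran from 0 to 15 over the libraries left out. The count of 0 lower became 1 (Pttg1) with the GC offset and replicate block and ran from 0 to 2 over the libraries left out. The shares of all genes called higher at the stricter rule were 6.77% with DESeq2 and 3.94% with the block. At the looser rule they were 12.0% with DESeq2 and 6.29% with the length offset. Without En5 replicate 3 they were 11.7% at the stricter and 19.8% at the looser rule. For the other alternatives counted here no such share was taken, so their counts are not read as results about the 50 genes. The median log2 fold change stayed positive, at 0.26 to 0.78 over all alternatives and 0.31 to 0.78 over the libraries left out. The median of all genes moved from 0.075 to 0.18 without a filter, 0.18 with limma on log2(TPM + 0.1), -0.053 without En5 replicate 3 and -0.085 with the GC offset and block. The rho with length, 0.42 to 0.58 over the libraries left out, was -0.066 with the length offset and -0.019 with the block added, by the construction of the offset, 0.30 with limma on log2(TPM + 1), and 0.33 and 0.31 with the GC offset without and with the block. Of 398 values of the 21 genes given in full, 21 changed sign and 11 passed the stricter rule. With the length offset Aurka was 0.023 and Top2a -0.15 (-0.12 with the block). Kif11 was -0.10 with the block, -0.60 with the length offset, -0.71 with both, -0.49 with the GC offset, -0.62 with that and the block, and -0.14 to 0.55 over the libraries left out. Ube2c was 0.056 with both limma fits, 0.26 with the length offset, 0.26 with the block added, 0.16 with the GC offset, 0.14 with that and the block, and -0.33 to 0.17 over the libraries left out, and Cdc20 was -0.30 to 0.40 over these. Apart from the offsets, the cause of these changes was not tested. Added to the fit without offsets, the replicate block changed the call of Bub1 at the stricter rule and of Smc4 at the looser one and no other call among the 50 genes. Added to the length offset it brought Bub1 past the stricter rule and Aurkb and Smc4 past the looser one, and added to the GC offset it brought Bub1 and Pttg1 past the looser one.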
